A study of Mus musculus with 14 samples.

Results

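Group 11 is a small group of liver nuclei that carries the genes of mesothelium, and its members are the nuclei that the authors assigned to that number in their 2 single-nucleus RNA-seq libraries. Read back from the steps in the deposited values, it held 61 nuclei, 30 of the KO library and 31 of the WT library, out of 6402 nuclei in groups 2 to 11. That is 0.953% of them. The nuclei of groups 0 and 1 could not be counted from the values, so the share of the whole data set is lower than this. The KO library came from Ms4a7 knockout mice and the WT library from wild type mice, all kept for 22 weeks on a diet that causes nonalcoholic steatohepatitis (NASH). Each library pooled frozen tissue of 3 livers, and its nuclei were stained with propidium iodide and sorted before 10x Genomics library preparation. Whole-liver RNA was also sequenced in 12 bulk libraries, 3 each from Ms4a7 KO and wild type mice on the same diet, and 3 each from wild type mice on chow that received LD or phosphate-buffered saline (PBS) in the tail vein on 6 consecutive days. LD is read here as lipid droplets, the subject named in the title of the series. Ms4a7 encodes a macrophage membrane protein of the MS4A family. The strain, sex and age of the mice and the cells that lack Ms4a7 are not given in the sources used here.

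The mesothelium is the flat cell layer that covers the liver capsule and lines the peritoneal cavity. It derives from mesoderm but keeps epithelial features, so it carries keratins, mesothelin and large surface mucins together with the transcription factor WT1 and mesenchymal matrix genes. It gives the liver a smooth surface, and in mice with injured livers mesothelial cells are known from lineage tracing to give rise to stellate cells and myofibroblasts.

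A deposited value is a mean, over the nuclei of a group and genotype, of unique molecular identifiers (UMIs, counted transcripts) scaled to 10000 per nucleus, and is called a level here. In so small a group the levels move in coarse steps, because a gene seen as 1 UMI in 1 nucleus takes a value set by the depth of that nucleus. The smallest level above 0 was 0.0242 in KO and 0.0450 in WT. Of the genes above 0, 2396 in KO (21.3%) and 2502 in WT (23.6%) were seen as a single UMI. The steps gave a depth for each of the 30 KO nuclei, but only 30 depths for the 31 WT nuclei. The missing WT nucleus was assigned 4358 UMIs, the depth whose single-UMI level was shared by the most genes. That is an assumption, and the WT median and total rest on it. KO depths ran from 1893 to 13758 UMIs, with a median of 4118.5 and 142211 in all. WT depths ran from 1069 to 7162 UMIs, with a median of 3824 and 118161 in all. A level of 1 thus stands for about 14.2 UMIs in KO and 11.8 UMIs in WT. A gene seen in 0 of 30 KO nuclei or 0 of 31 WT nuclei had a share of nuclei with a UMI that, for nuclei of this kind and depth, could be up to 11.6% in KO and 11.2% in WT (upper bounds of the exact 95% binomial interval). These limits say nothing of nuclei that express the gene below the reach of this depth. Among nuclei of groups 2 to 11, group 11 made up 0.885% in KO (0.598% to 1.26%, exact 95% binomial interval) and 1.03% in WT (0.700% to 1.46%). The intervals overlap, and they cover counting error only. They leave out any error in the recovered numbers of nuclei of the larger groups. With 1 library per genotype, neither this share nor any level below could be tested between KO and WT, and the comparisons are of these 2 libraries.

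**Figure D1:**
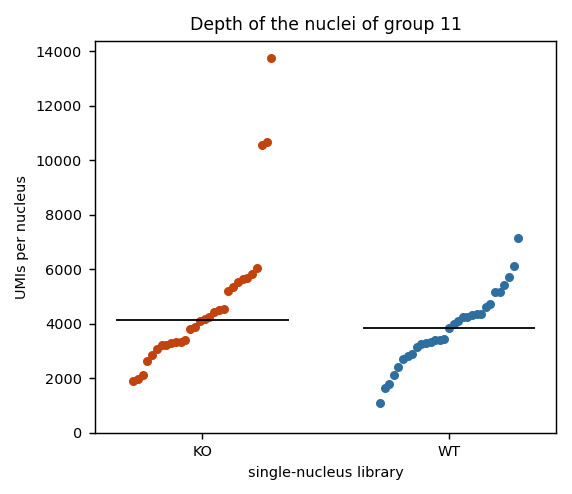
UMIs per nucleus (vertical axis) of the nuclei of group 11, sorted by depth within the KO library (left) and the WT library (right). Each point is a nucleus and each line the median. The WT depth of 4358 UMIs is drawn for 2 nuclei, by assumption. The deepest KO nucleus, at 13758 UMIs, stands above every other nucleus of the group, and the next deepest KO nucleus had 10665.

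Ms4a7 itself was at 0 in the KO nuclei of group 11 and was seen as 1 UMI in 1 of 31 WT nuclei. In group 3, where 17 of 17 genes of a Kupffer cell and macrophage list were highest, its level was 0.622 in KO and 1.25 in WT. The macrophage list as a whole summed to 3.59 in KO and 4.79 in WT nuclei of group 11, against 101 in KO and 79.3 in WT nuclei of group 3. Of the 17 genes 13 were above 0 in group 11 in at least 1 genotype and 4, Trem2, Cd68, Marco and Timd4, were at 0 in both. The receptor gene Mertk made up most of the sum, at 2.79 in KO and 1.96 in WT, and Adgre1, which encodes F4/80, was at 0 in KO and 0.734 in WT. All 17 were lower in group 11 than in group 3. The part of macrophage RNA in the group's levels was not tested.

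Mesothelial identity was examined with a list of 40 genes, of which 38 were in the table. Group 11 was the highest of the 12 groups for 30 of the 38 (78.9%), against 9.99% of all 21902 genes above 0 in any group. The 6 genes given as marks of the group are among them, and without these 24 of 32 (75%) were highest there. The count was 30 from KO nuclei alone and 29 from WT nuclei alone. The list summed to 311 in KO and 284 in WT nuclei of group 11, while no other group passed 35.01 in KO or 26.2 in WT. Without the 6 given markers the other 32 genes summed to 165 in KO and 138 in WT nuclei of group 11, against 34.6 in KO and 26.01 in WT nuclei of group 7, the next highest. Since the authors' groups come from the expression of these same nuclei, the counts describe the group and carry no test. Counts of genes highest in group 11 in the other lists below stand beside the same 9.99% of all genes.

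The canonical surface genes led. Msln, which encodes mesothelin, was at 6.42 in KO and 3.48 in WT nuclei of group 11, and at 0.0386 and 0 in KO and WT nuclei of group 7, the next group. Muc16, the mucin that binds mesothelin, was at 12.9 in KO and 13.9 in WT, and at 0.0317 and 0 in group 6, the next. The uroplakin gene Upk3b was at 6.01 in KO and 3.83 in WT, and the uroplakin gene Upk1b at 5.84 in KO and 4.89 in WT. Each of these 4 genes was above every other group in both genotypes. Lrrn4, a leucine-rich repeat membrane protein gene used as a mesothelial marker, was at 1.79 in KO and 0.579 in WT. Pdpn, which encodes podoplanin, was at 3.13 in KO and 2.46 in WT, and Gpm6a, a membrane glycoprotein gene, was at 22.2 in KO and 33.5 in WT.

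Wt1, the regulator of mesothelial and kidney development, was at 7.70 in KO and 4.85 in WT, and group 2 came next at 0.889 over both genotypes. The zinc finger genes of the basonuclin family were both highest in group 11: Bnc1 at 3.11 in KO and 2.84 in WT, and Bnc2 at 15.5 in KO and 20.1 in WT. In a list of 26 measured factors of serosal and coelomic tissue, 7 were highest in group 11, namely Bnc2, Meis1, Wt1, Bnc1, Yap1, Gata5 and Isl1. Yap1 was only 1.02-fold over the next group, and the last 2 rest on few nuclei. Gata5 had 5 UMIs in 4 of 30 KO nuclei and 6 UMIs in 5 of 31 WT nuclei, and Isl1 was at 0 in KO and had 2 UMIs in 2 WT nuclei. Gata4, which the mesothelial list also holds, was at 5.86 in KO and 3.60 in WT, below group 4 at 8.85 in KO and 9.05 in WT.

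Not all mesothelial genes were highest in group 11. Of the keratins, Krt7 was highest there, at 1.17 in KO and 1.63 in WT, and so was Krt19, at 0.887 in KO and 0.480 in WT. The WT level of Krt19 is 6 UMIs in 5 of 31 nuclei. Krt8, Krt18, Gata6 and Clu were above 0 in group 11 but higher elsewhere. Tcf21, Podxl and Prg4, which encodes a lubricating proteoglycan, were at 0 in all 61 nuclei.

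By the same measure group 11 was then described without a list. Genes were ranked by the mean of their KO and WT levels in group 11, called the mean level here. Among the 2000 highest, 219 (10.9%) were at least 2-fold above the next group and above every other group in each genotype. Called leading genes here, they are a description of the clusters and have no test. The same rule gave between 0 genes, in group 8, and 252 genes, in group 5. Fold changes over the next group have 0.0586 added to both levels, so they understate the difference where the other groups are near 0. Serpinh1, at 2.01-fold, was the last gene inside the rule and Ddr1, at 1.99-fold, was the nearest outside it. The next group was group 7 for 69 leading genes and group 2 for 52.

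The gene furthest above the rest was Pkhd1l1, which encodes a large membrane protein related to fibrocystin, with a level of 16.1 in KO and 20.9 in WT and 261-fold over the next group. It lies on chromosome 15 from 44457494 to 44601369 on the plus strand (mm10, GENCODE M21). Muc16 followed at 181-fold (chromosome 9, 18495455 to 18674530, minus strand). Igfbp5, an insulin-like growth factor binding protein, was at 44.7 in KO and 34.7 in WT and 106-fold over the next group (chromosome 1, 72857932 to 72874884, minus strand). All 3 are protein-coding genes.

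Of the genes with the highest mean level in group 11, Malat1, Gm42418, Zbtb20, mt-Co3 and mt-Atp6 were higher in another group. Grip1, Efna5, Mast4, Celf2 and Syne2 were highest in group 11. Grip1, a scaffold protein gene, was at 49.4 in KO and 55.8 in WT and 8.55-fold over the next group. Efna5, which encodes the guidance ligand ephrin-A5, was at 42.6 in KO and 47.8 in WT.

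The 25 leading genes also held several with known roles in neurons. The RNA splicing factor gene Rbfox1 was at 27.7 in KO and 24.04 in WT, 72.3-fold over the next group. The potassium channel genes Kcnd2 and Kcnd3 were 101-fold and 58.5-fold over the next group. Il1rapl1, Cadm2, Nxph1 and Ephb1, which encode synaptic or axonal adhesion and guidance proteins, ranged from 40.7-fold to 129-fold. On the list of 26 long genes of neural adhesion and splicing, 6 were highest in group 11 and 9 in group 2, and the list summed to 102 in KO and 109 in WT nuclei of group 11, against 174 in KO and 188 in WT nuclei of group 2. Of 10 measured genes of a nerve and Schwann cell list only Cadm2 was highest in group 11. The list summed to 8.90 in KO and 11.3 in WT, against at most 3.27 in KO and 6.29 in WT in the other groups. Cadm2, at 8.565 in KO and 8.56 in WT, made up most of it. Of these 10, 5 were at 0 in both genotypes, Rbfox3, Tubb3 and S100b among them.

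Signalling genes of the group included Rspo1, the Wnt-enhancing secreted protein, at 4.43 in KO and 3.98 in WT and 61.3-fold over the next group. Lrp2, which encodes the endocytic receptor megalin, was at 4.28 in KO and 5.88 in WT and 79.2-fold over the next group. Bmpr1b, a bone morphogenetic protein receptor gene, was at 5.70 in KO and 7.46 in WT, and Gpc3, a cell-surface proteoglycan gene, was at 10.9 in KO and 10.6 in WT. Of 20 measured genes of TGF-beta and BMP signalling, 4 were highest in group 11: Ltbp1, Tgfb2, Bmp4 and Tgfb3. Tgfb2 was at 3.05 in KO and 2.92 in WT. The rest of the 25 leading genes furthest from the next group were Sh3rf2, Cpe, Ptprq, Lrrc31, Pcnx2 and Lvrn, between 37.4-fold and 76.6-fold.

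**Figure D2:**
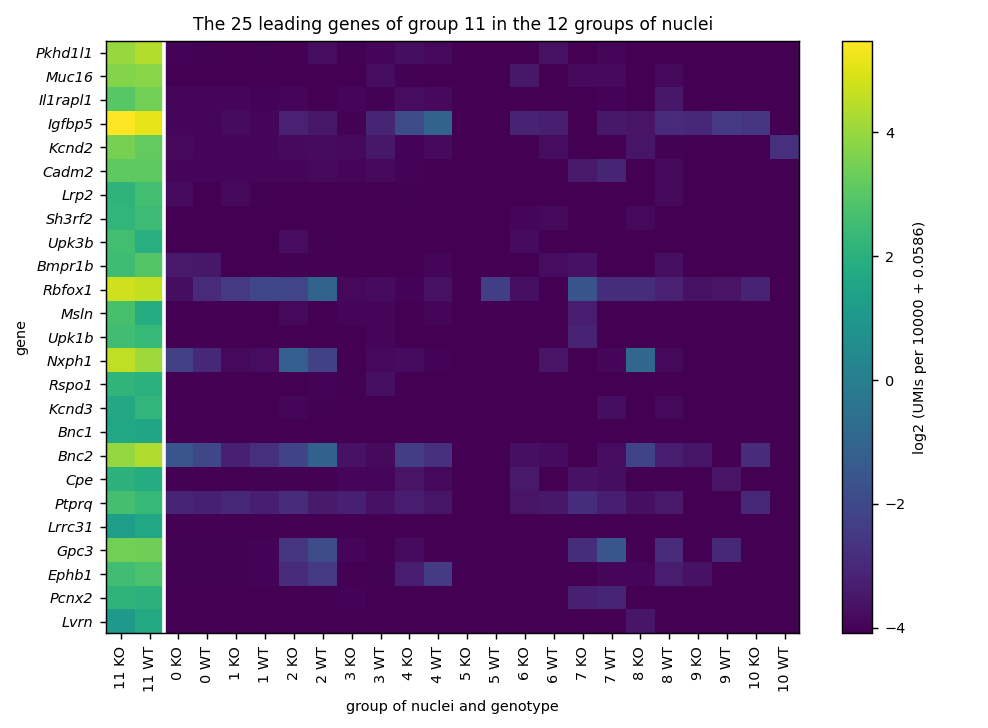
Levels of the 25 leading genes of group 11 that stood furthest above the next group (rows) in the 12 groups of nuclei, KO left of WT in each group (columns), on a log2 colour scale after adding 0.0586. The 2 columns of group 11 at the left are bright in every row, and low levels of Igfbp5, Rbfox1, Nxph1, Bnc2 and Gpc3 are visible in a few other groups.

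Over the 24 columns of group and genotype, the genes whose log2 profile was most like the mean of the 6 given markers were Ephb1 (Pearson r = 0.991), Aebp1 (0.984), Ccdc85a (0.982), Nbl1 (0.981) and Il1rapl1 (0.979), among 1950 genes compared. Columns of 1 library hold different nuclei but share its pooled livers and preparation. For each of the 5 genes both columns of group 11 were above all others.

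The promoters of leading genes were searched for short motifs. Of the 25 leading genes above, 18 had an entry in the RefSeq promoter table (GRCm38.p6, 250 bases before to 50 after the start), and Pkhd1l1, Sh3rf2, Msln, Upk1b, Cpe, Ptprq and Lvrn were not in it. The letters GGAATG, read by TEAD factors that partner with YAP1, were found on either strand in 2 of the 18, in 7 of 26 matched genes of the mesothelial list (26.9%), in 33 of 165 matched leading genes (20%) and in 14.6% of 27025 promoters of all genes. The promoters of Upk3b, Igfbp5 and Lrrn4 are shown because they belong to the surface and secreted genes described above and hold these letters once each, in capitals, as GGAATG or its reverse complement CATTCC. They lie at chr5:136038246-136038545 on the plus strand, chr1:72874816-72875115 on the minus strand and chr2:132880813-132881112 on the minus strand.
Upk3b: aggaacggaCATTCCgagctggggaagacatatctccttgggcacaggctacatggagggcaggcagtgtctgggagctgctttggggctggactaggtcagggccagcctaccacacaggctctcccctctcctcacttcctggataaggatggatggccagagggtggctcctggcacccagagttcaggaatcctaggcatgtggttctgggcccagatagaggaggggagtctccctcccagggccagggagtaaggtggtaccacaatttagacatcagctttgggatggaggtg
Igfbp5: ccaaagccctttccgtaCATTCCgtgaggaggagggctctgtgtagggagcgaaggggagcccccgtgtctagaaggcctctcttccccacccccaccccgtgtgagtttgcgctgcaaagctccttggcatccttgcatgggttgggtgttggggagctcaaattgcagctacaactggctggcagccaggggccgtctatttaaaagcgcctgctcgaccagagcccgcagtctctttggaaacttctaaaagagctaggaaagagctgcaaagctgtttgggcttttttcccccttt
Lrrn4: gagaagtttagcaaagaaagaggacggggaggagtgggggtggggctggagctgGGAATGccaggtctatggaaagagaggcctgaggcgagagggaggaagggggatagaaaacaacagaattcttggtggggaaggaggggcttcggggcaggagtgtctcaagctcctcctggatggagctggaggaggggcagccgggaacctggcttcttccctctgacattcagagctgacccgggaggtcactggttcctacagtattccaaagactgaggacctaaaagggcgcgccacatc
The capitals begin 241, 233 and 196 bases before the start of Upk3b, Igfbp5 and Lrrn4. The other motifs were searched in the same way on both strands, and none contains another. A motif of GATA factors, spelled TGATAA, was in 9 of 165 leading genes (5.45%) and 9.26% of all promoters. GTGGGAG (WT1) was in 29 of 165 (17.6%) and 9.45% of all, and among the 25 in Cadm2, Gpc3 and Ephb1, but in only 1 of 26 genes of the mesothelial list (3.85%). Of the 26, 2 held the GATA letters (7.69%). AGGTGTGA (T-box factors) was in 1 of 165 (0.606%) and 1.27% of all. The AP-1 letters TGA, any base, then TCA were in 11 of 165 (6.67%) and 7.93% of all, and in 3 of the 26 (11.5%), while none of the 26 held the T-box letters. These are matches of letters and were not tested.

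The profile of group 11 over the 2000 genes was closest to that of group 2 (Pearson r = 0.28), group 7 (0.267) and group 8 (0.243), and its KO and WT columns correlated at r = 0.775. All 19 genes of a hepatic stellate cell list were highest in group 2 and none in group 11. Of the 19 genes 12 were above 0 in group 11 and 7, among them Lrat, Des, Pdgfrb and Lhx2, were at 0 in both genotypes. The list summed to 12.4 in KO and 9.53 in WT nuclei of group 11, against 308 in KO and 238 in WT nuclei of group 2. Dcn, which encodes the matrix proteoglycan decorin, was at 10.3 in KO and 5.49 in WT, and at 19.8 in group 2 over both genotypes. Group 7, in which 14 of 16 cholangiocyte genes were highest, was the next group for Krt7 and Krt19, the only 2 of the list highest in group 11. Bicc1, an RNA-binding protein gene, was higher in group 7 but also abundant in group 11, at 23.3 in KO nuclei, and made up most of the list's sum of 27.6 in KO and 34.4 in WT. Of the 16 genes 6, among them Epcam and Sox9, were at 0 in all 61 nuclei and 10 were above 0. Cftr, the chloride channel gene, was at 1.11 in KO and 0.937 in WT nuclei of group 11, and Pkhd1, the fibrocystin gene, at 0.306 in KO and 0.661 in WT.

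The list of T and NK cells summed to 0.160 in KO and 0 in WT, with 12 of 14 genes at 0, against 87.4 in KO and 82.7 in WT nuclei of the highest group. Of 19 fibroblast genes 6 were highest in group 11: Eln, Gas1, Fbln2, Cd34, Gli1 and Entpd2. The count was 7 from KO nuclei alone and 4 from WT nuclei alone, and Entpd2 was 2 UMIs in KO and 0 in WT. The fibroblast list summed to 23.8 in KO and 24.02 in WT, against 18.7 in KO and 25.7 in WT nuclei of group 2. Gas1, a growth arrest gene, was at 6.46 in KO and 4.21 in WT. None of 10 vascular smooth muscle genes and none of 11 dendritic cell genes was highest there. Pdpn was the only 1 of 12 lymphatic and vascular endothelial genes, Pnpla2 of 7 adipocyte genes, and Aurka of 16 proliferation genes. Pnpla2 was 2 UMIs in KO and 1 in WT, and Aurka 1 UMI in KO and 0 in WT, and from WT nuclei alone neither list had a gene highest in group 11. The neutrophil list summed to 0 in KO and 0.224 in WT, and the B and plasma cell list to 0.189 in KO and 0.783 in WT. The sinusoidal endothelial list summed to 3.27 in KO and 2.57 in WT, of which Kdr, the VEGF receptor gene, made up 2.12 in KO and 1.61 in WT. The hepatocyte list had none of 33 genes highest in group 11, but 32 were above 0. Its sum was 75.6 in KO and 38.5 in WT, within the span of the other groups, 56.1 to 384 in KO and 22.0 to 200 in WT.

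**Figure D3:**
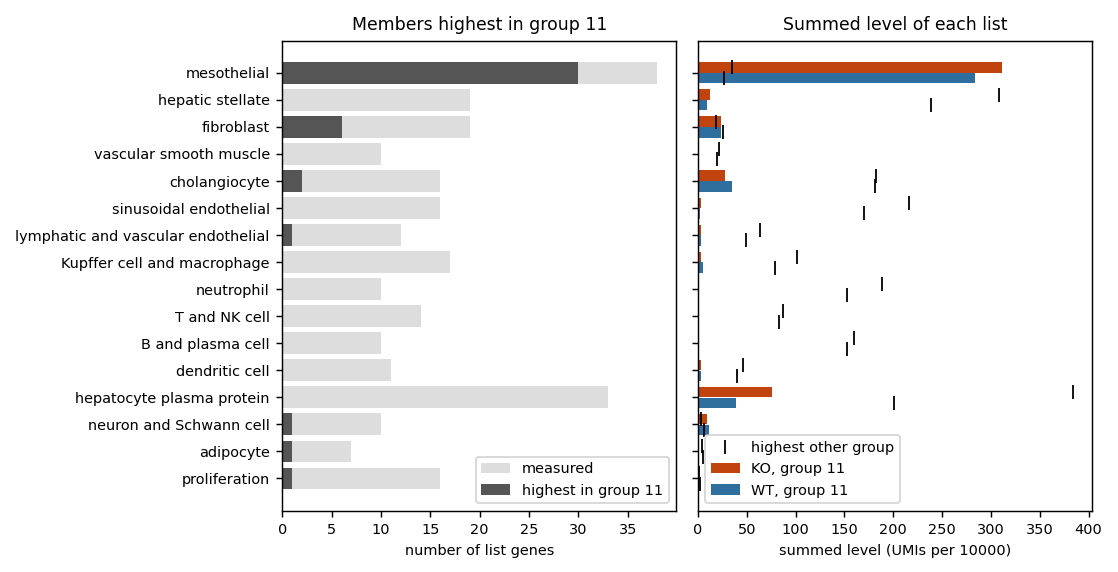
Left, number of genes measured in each cell type list (light bars) and number highest in group 11 of the 12 groups (dark bars). Right, summed level of each list in group 11 (bars, KO above WT) with the highest other group of the same genotype (ticks), in UMIs per 10000. The mesothelial bars of group 11, 311 in KO and 284 in WT, pass every other group. So do the much shorter neuron and Schwann cell bars, at 8.90 in KO and 11.3 in WT, and the fibroblast bar in KO. The hepatic stellate, endothelial and immune bars lie far left of their ticks.

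Of 25 basement membrane genes, 9 were highest in group 11. They included all 4 of the less common collagen IV chains measured: Col4a3 at 4.29 in KO and 2.88 in WT, Col4a4 at 4.81 in KO and 7.05 in WT, Col4a5 at 6.67 in KO and 5.58 in WT, and Col4a6 at 3.69 in KO and 2.72 in WT. Group 7 came next for each of the 4. Thsd4, a microfibril-associated gene, was at 33.6 in KO and 40.9 in WT. Group 7 came next at 19.6 in KO and 21.2 in WT, so group 11 was only 1.82-fold over it. Of 13 fibrillar and associated collagen genes, 2 were highest in group 11, Col6a1 and Col6a2, beside 9.99% of all genes above 0 in any group. Col3a1, at 5.89 in KO and 7.29 in WT, was higher in group 2. The elastin gene Eln was at 7.54 in KO and 10.7 in WT, 6.86-fold over the next group.

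Of 16 measured mucin, glycocalyx and hyaluronan genes, 6 were highest in group 11: Sulf1, Muc16, Gpc3, Msln, Hs3st1 and Has1. Sulf1, which trims sulfate from heparan chains, was at 29.8 in KO and 32.8 in WT and 21.2-fold over the next group. Has1, a hyaluronan synthase gene, was at 0.805 in KO and 0.192 in WT, and its WT level was 2 UMIs in 2 of 31 nuclei. Of 20 complement and innate defence genes, 7 were highest in group 11. C3, the central complement component, was at 23.8 in KO and 12.8 in WT, above group 1 at 7.07 over both genotypes, and C4b was at 7.48 in KO and 6.83 in WT. Slpi, a secreted protease inhibitor gene, was at 5.91 in KO and 2.16 in WT, and group 5 was at 2.94 in KO and 2.63 in WT, so group 11 led in KO only. The list summed to 59.4 in KO and 39.2 in WT. Its log2 ratio of 0.60 lay above those of the other groups, which ran from -0.12 to 0.42. The hepatocyte list, also higher in KO in group 11, had a log2 ratio of 0.97, and its part in the complement values was not tested.

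Of 22 epithelial junction and polarity genes, 5 were highest in group 11, among them Cdh3, which encodes P-cadherin, at 2.26 in KO and 2.43 in WT, and the claudin gene Cldn15 at 2.22 in KO and 1.32 in WT. Of 8 keratin and intermediate filament genes, 3 were highest, and Vim, the vimentin gene of mesenchymal cells, was one of them at 2.40 in KO and 0.967 in WT. Of 18 Wnt genes 6 were highest (Rspo1, Fzd4, Wnt5a, Fzd1, Sfrp1 and Wnt2b), and 5 from WT nuclei alone. Some rest on few UMIs: Wnt2b was 1 UMI in KO and 0 in WT, and Sfrp1 2 UMIs in each genotype. Fzd1 was 4 UMIs in KO and 5 in WT. Of 13 insulin-like growth factor genes 3 were highest (Igfbp5, Igfbp6 and Irs2). Of 15 retinoid genes only Aldh1a2, which makes retinoic acid, was highest, at 0.605 in KO and 1.52 in WT. Of 17 immediate early and stress genes 2 were highest (Hspa1a and Cdkn1a), and 1 each from KO nuclei alone and from WT nuclei alone. Of 10 Ms4a family and target genes none was highest, and of 10 mitochondrially encoded genes none. These counts stand beside the 9.99% of all genes above 0 in any group that were highest in group 11.

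KO and WT nuclei of group 11 were within 2-fold of each other for 1802 of the 2000 genes. Of the rest, 107 (5.35%) were at least 2-fold higher in KO and 91 (4.55%) at least 2-fold lower, after adding 0.0586 to each level, with a median log2 ratio of -0.07 and an SD over genes of 0.70. The 219 leading genes had a median log2 ratio of 0.02, with 16 (7.31%) at least 2-fold higher in KO and 8 (3.65%) lower. Of 29 mesothelial list genes among the 2000, 3 (10.3%) were at least 2-fold higher in KO and none lower, with a median of 0.27. Those 3 were Slpi (log2 ratio 1.43), Lrrn4 (1.54) and Clu (1.66), and the 6 given markers lay between -0.38 for Bnc2 and 0.36 for Igfbp5. The same counts in the other groups differed widely. Group 5, with 30 KO and 57 WT nuclei, had 288 genes at least 2-fold higher in KO and 250 lower, and an SD of 1.03. Group 10, with 60 KO and 53 WT nuclei, had 58 higher and 39 lower, and an SD of 0.52. In the other 9 groups at most 69 genes were at least 2-fold higher.

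The largest differences were the haemoglobin genes, and for 3 of the 4 they came from 1 nucleus. Hbb-bs was at 79.2 in KO and 0.925 in WT nuclei of group 11, Hbb-bt at 15.6 in KO and 0 in WT, Hba-a1 at 43.3 in KO and 0.279 in WT, and Hba-a2 at 33.3 in KO and 0.0986 in WT. In the other groups no KO or WT level of these 4 genes passed 1.37. Read back from the steps, the KO nucleus with 13758 UMIs alone held 3255 UMIs of Hbb-bs, 637 of Hbb-bt and 1362 of Hba-a2, together 38.2% of its UMIs. For Hba-a1 the search was limited to this nucleus as the main source, and under that assumption it held 1761 to 1767 UMIs of it, which would bring the share to 51.0%. The other 29 KO nuclei held 4 UMIs of Hbb-bs, 2 of Hbb-bt and 3 of Hba-a2. Without that nucleus the log2 ratio of KO to WT was -1.45 for Hbb-bs, against 6.33 with it. For Hbb-bt it was 2.06, against 8.06, and for Hba-a2 1.38, against 7.73. Hba-a1 and Hba-a2 are near-identical copies, so their split is uncertain. What this nucleus added to other genes with more than a few UMIs could not be separated.

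Plasma protein and mitochondrial transcripts were also higher in KO. Of 18 hepatocyte genes among the 2000, 10 were at least 2-fold higher in KO and none lower. Alb, the albumin gene, was at 11.02 in KO and 5.03 in WT, Apoa2 at 8.36 in KO and 3.62 in WT, and the major urinary protein gene Mup3 at 5.72 in KO and 1.33 in WT. The summed list differed by 0.97 on the log2 scale in group 11 and by 0.49 to 1.36 in the 11 other groups, so KO was higher in all 12. All 10 measured mitochondrially encoded genes were higher in KO, 6 of them at least 2-fold. Their sum was 238 in KO and 107 in WT, a log2 ratio of 1.15, while the other groups lay between -0.18 and 0.61. The immediate early and stress list summed to 3.09 in KO and 1.09 in WT. Its log2 ratio was 1.51, while the other groups lay between -0.46 and 0.89. None of its genes was among the 2000, so the sum rests on few UMIs. The nuclear RNA Malat1 was at 426 in KO and 520 in WT, and Gm42418, a gene model that overlaps ribosomal RNA sequence, was at 51.5 in KO and 116 in WT. Whether material from outside the nuclei has a part in the other KO differences was not tested. Without haemoglobin, mitochondrial and plasma protein genes, 87 genes were at least 2-fold higher in KO and 91 lower.

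**Figure D4:**
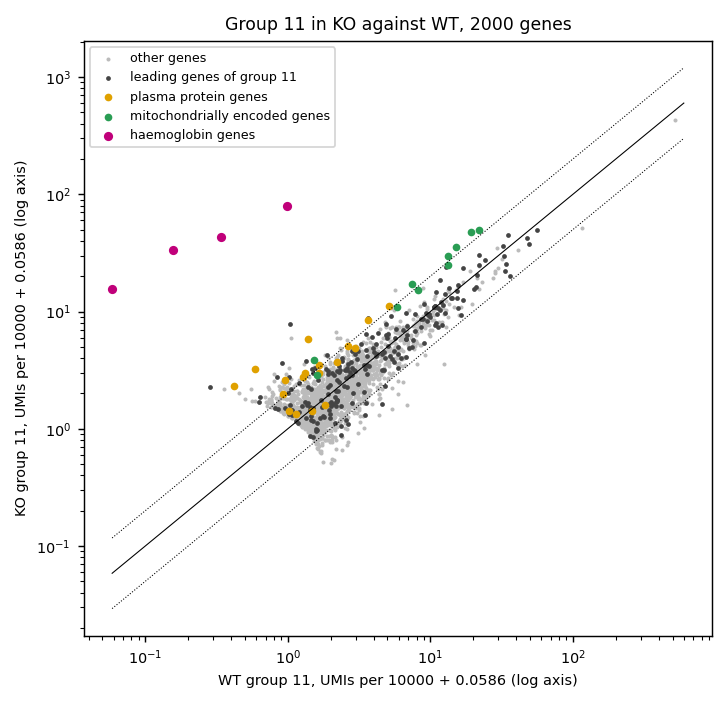
Levels in group 11 of the KO library (vertical) against the WT library (horizontal), in UMIs per 10000 plus 0.0586 on log axes. The 2000 genes with the highest mean level in the group are drawn. The solid line marks equal levels and dotted lines a 2-fold difference. Leading genes scatter about the solid line with a median log2 ratio of 0.02, all mitochondrially encoded genes lie above it, and the 4 haemoglobin genes stand apart at the upper left.

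Among the 1000 genes with the highest mean level, those that differed most after the haemoglobins were as follows. The imprinted long noncoding RNA Meg3 was at 7.74 in KO and 0.977 in WT, a log2 ratio of 2.91, and in the 11 other groups the ratio lay between -0.54 and 0.97. Pcdh7, a protocadherin gene, was at 5.92 in KO and 0.993 in WT. Pak3, a kinase gene, was at 3.25 in KO and 0.965 in WT, Clic4, a chloride channel protein gene, at 6.58 in KO and 2.12 in WT, and Abcb1b, a drug efflux transporter gene, at 3.71 in KO and 1.29 in WT. Mup3 completes the 10 with the 4 haemoglobins. Mup3 was higher in KO in all 11 other groups too. Over both genotypes Pcdh7, Pak3 and Mup3 were higher in another group than in group 11. Group 2 had Pcdh7 at 18.7 in KO and 18.4 in WT.

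Lower in KO were Kalrn, which encodes a guanine nucleotide exchange factor, at 1.53 in KO and 6.84 in WT (log2 ratio -2.12), and the phospholipase gene Plcb1 at 1.41 in KO and 5.28 in WT. Nkain2, a gene of sodium pump interacting proteins, was at 3.53 in KO and 12.4 in WT, and Hpgd, the prostaglandin-degrading dehydrogenase, was at 0.965 in KO and 3.36 in WT. Il17rd, an inhibitor of fibroblast growth factor signalling, was at 1.26 in KO and 3.44 in WT, and Plod2, the collagen lysyl hydroxylase, was at 1.57 in KO and 4.51 in WT. The rest of the 10 were Ppp2r2b, Plekha7, Aff3 and Papola, with log2 ratios from -1.39 to -1.73. Kalrn and Aff3 were lower in KO in all 11 other groups as well. Hpgd went the other way in most of them, being higher in KO in 8 and lower in 3. Over both genotypes only Plekha7, Plod2 and Il17rd of the 10 were highest in group 11. Group 2 had Kalrn at 15.45 in KO and 19.8 in WT, and Nkain2 at 29.5 in KO and 20.8 in WT. Group 9 had Aff3 at 27.6 in KO and 29.5 in WT. The part of RNA from nuclei of other kinds in these differences was not tested.

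The genes of group 11 were then looked up in whole liver. Bulk values are gene counts divided by a size factor per library, called normalised counts here. Before any direction is read from them, the labels need a caution. Ms4a7 was at 102, 117 and 136 normalised counts in the 3 libraries labelled KO and at 9.70, 25.8 and 23.3 in the 3 labelled WT, and the difference passed the test (log2 fold change 2.63 ± 0.37 SE, limma adjusted p = 0.01495). Without replicate 2 or replicate 3 of the libraries labelled KO the limma adjusted p was 0.06305 and 0.05377. In the other table it was at 10.5, 7.595 and 9.32 in libraries labelled LD and at 62.2, 84.7 and 163 in libraries labelled PBS (-3.26 ± 0.39, limma adjusted p = 0.004277). The knocked-out gene was thus higher in the libraries labelled KO. The deposited table that the labels tie to the KO and WT libraries is also named for LD, and the other one for Ms4a7. Both comparisons below keep the labels, and KO, WT, LD and PBS stand there for labels only. Whether the 2 tables were exchanged against the labels was not tested. No bulk difference below is read as an effect of genotype or of LD. Nothing in the labels says that replicates came from separate mice, so p-values measure the spread between these libraries, which may be technical.

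Of the 25 leading genes, 16 were in the table of libraries labelled KO and WT and 6 passed the filter on low values, at least 10 normalised counts in 3 of 6 libraries. None of the 6 passed the test at a limma adjusted p of 0.05, against 3.72% of all 15827 genes tested, and none had an unadjusted p under 0.05, against 18.7%. On recovered reads edgeR and DESeq2 called none of the 6, against 4.09% and 7.84% of all genes. Upk3b had 47.9, 13.0 and 51.8 normalised counts in libraries labelled KO and 48.5, 16.8 and 57.6 in those labelled WT. Msln had 17.2, 5.91 and 14.98 in libraries labelled KO and 18.2, 24.5 and 9.80 in those labelled WT. For both the groups overlapped. Igfbp5 had 313, 254 and 303 in libraries labelled KO and 549, 218 and 698 in those labelled WT (log2 fold change -0.60 ± 0.39 SE, limma adjusted p = 0.4711). Without replicate 2 of the libraries labelled WT, its log2 fold change was -1.10 and the limma adjusted p 0.033.

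The 15 leading genes other than Igfbp5 summed to 120, 67.4 and 153 normalised counts in the libraries labelled KO and to 152, 138 and 168 in those labelled WT. Replicate 2 of the libraries labelled KO was the lowest of the 6 for 9 of 14 leading genes above 0 in at least 3 libraries, and Pkhd1l1, Muc16, Upk1b and Wt1 were at 0 in it. In bulk, fewer mesothelial cells, less RNA per cell and RNA of these genes from other cells cannot be told apart.

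**Figure D5:**
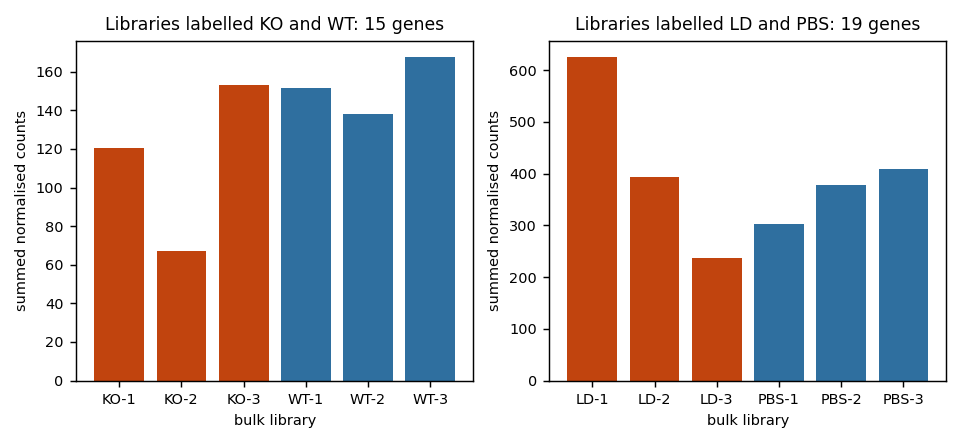
Summed normalised counts of the leading genes of group 11 present in each bulk table, leaving out Igfbp5: 15 genes in the libraries labelled KO and WT (left) and 19 in those labelled LD and PBS (right), with a bar for each library. The 2 tables were scaled separately, so bars are comparable within a panel only. The lowest library of each panel is KO-2 at 67.4 and LD-3 at 236.

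In the table of libraries labelled LD and PBS 20 of the 25 leading genes were present and 10 passed the filter. None was called by limma, against 4.16% of all 14900 genes tested, and none by edgeR, against 4.05%. By limma 1 had an unadjusted p under 0.05, against 19.7% of all genes, and DESeq2 called 1, against 8.2%. Both times the gene was Lrp2, with 93.4, 46.7 and 19.7 normalised counts in libraries labelled LD and 14.0, 17.1 and 16.4 in those labelled PBS (log2 fold change 1.43 ± 0.51 SE, limma adjusted p = 0.1644). The 2 groups did not overlap for Lrp2, as for 25.4% of all genes tested. Without replicate 3 of LD, Lrp2 passed, as 1 of the 25 genes. The 19 leading genes without Igfbp5 summed to 626, 393 and 236 in libraries labelled LD and to 303, 379 and 409 in those labelled PBS. The LD libraries held both the highest and the lowest sum of the table. Igfbp5 had 1576, 1106 and 825 in libraries labelled LD and 924, 1037 and 876 in those labelled PBS. Muc16 had 20.99, 13.0 and 5.18 in libraries labelled LD and 20.1, 16.2 and 18.2 in those labelled PBS, and Upk3b had 163, 115 and 59.0 in libraries labelled LD and 65.2, 109 and 88.3 in those labelled PBS. Their groups overlapped.

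In the mesothelial list none of 23 genes tested passed between libraries labelled KO and WT by limma, edgeR or DESeq2, and 3 had an unadjusted p under 0.05 by limma (Slpi, Gata4 and Ezr). Slpi had 23.4, 50.8 and 64.5 normalised counts in libraries labelled KO and 19.4, 19.4 and 18.4 in those labelled WT (log2 fold change 1.12 ± 0.39 SE, limma adjusted p = 0.1755). The 2 groups did not overlap for Slpi, as for 24.2% of all genes tested. Igfbp5 alone passed without replicate 2 of the libraries labelled WT, and Slpi alone without replicate 1 of those labelled KO. Between LD and PBS 1 of 35 passed (2.86%, against 4.16% of all genes), 12 had an unadjusted p under 0.05, edgeR called 1 and DESeq2 called 5 (Krt19, Krt8, Krt18, Gata6 and Hspb1). These counts stand beside 19.7%, 4.05% and 8.2% of all genes by the same measures. The gene called by limma and edgeR was Krt19, with 80.8, 84.6 and 108 normalised counts in libraries labelled LD and 198, 151 and 153 in those labelled PBS (log2 fold change -0.87 ± 0.19 SE, limma adjusted p = 0.04128). The 2 groups did not overlap. Krt7, also highest in group 11 but shared with group 7, had 46.2, 44.5 and 61.1 in libraries labelled LD and 80.2, 97.4 and 88.3 in those labelled PBS, with a limma adjusted p of 0.08437. Krt19 missed the threshold when any library but replicate 3 of LD was left out, with limma adjusted p from 0.1127 to 0.1304, and with quantile normalisation, at 0.075. Without replicate 3 of LD 6 genes of the list passed: Krt19, Krt7, Krt8, Krt18, Hspb1 and Prg4. In nuclei of group 7 Krt19 was at 0.403 in KO and 0.169 in WT and Krt7 at 0.301 in KO and 0.227 in WT, and the part of those nuclei in the difference was not tested.

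Of all 219 leading genes, 198 were in the table of libraries labelled KO and WT. Between libraries labelled KO and WT 139 were tested and 4 passed (2.88%), each higher in libraries labelled KO, where 3.02% of all genes were called higher. They were Crip1, Gbp2, Pmp22 and Id1, named after their values were seen. Gbp2, an interferon-induced GTPase gene, had 251, 409 and 350 normalised counts in libraries labelled KO and 40.0, 112 and 74.7 in those labelled WT (log2 fold change 2.23 ± 0.36 SE, limma adjusted p = 0.02183). In nuclei of group 11 Gbp2 was at 2.11 in KO and 1.39 in WT, and in group 5, the next, at 0.773 in KO and 0.581 in WT. The part of other cells in these bulk differences was not tested. The count was 0 without replicate 2 of the libraries labelled KO, 0 without their replicate 3, 2 without their replicate 1, 1 without replicate 1 of the libraries labelled WT, 2 without their replicate 3, and 7 by DESeq2.

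Between LD and PBS 169 leading genes were tested and 12 passed (7.10%, against 4.16% of all genes), 1 higher and 11 lower in libraries labelled LD, again named after their values were seen. Of all genes, 1.95% were called higher and 2.21% lower. The median log2 fold change was -0.16 over the 169 and 0.00 over all genes. Limch1, an actomyosin regulator gene, had 40.9, 34.7 and 59.0 normalised counts in libraries labelled LD and 254, 178 and 179 in those labelled PBS (log2 fold change -2.17 ± 0.25 SE, limma adjusted p = 0.003895). Eln, the elastin gene, had 244, 301 and 324 in libraries labelled LD and 464, 513 and 552 in those labelled PBS (-0.82 ± 0.14, limma adjusted p = 0.01583). Loxl1, a lysyl oxidase that crosslinks elastin, had 308, 213 and 250 in libraries labelled LD and 396, 430 and 553 in those labelled PBS (-0.84 ± 0.18, limma adjusted p = 0.03337). Tgfb2 had 68.2, 43.4 and 54.9 in libraries labelled LD and 131, 94.7 and 114 in those labelled PBS (-1.03 ± 0.24, limma adjusted p = 0.04827). For each of these 4 genes the 2 groups did not overlap. In nuclei of its next group, Limch1 was at 1.71 in KO and 2.58 in WT (group 4). Eln was at 0.856 in KO and 1.70 in WT (group 2), and Loxl1 at 0.386 in KO and 0.739 in WT (group 2). Tgfb2 was at 0.896 in KO and 1.775 in WT (group 7). Group 4 held 845 KO and 405 WT nuclei and group 2 held 853 KO and 693 WT nuclei. The part of other cells in these bulk differences was not tested. The others that fell were Arhgap44, Anxa3, Ndrg1, Serpinh1, Prss23, Ubtd2 and Ahnak2, and Slc9a3r1, a scaffold protein gene of microvilli, rose. The count of 12 became 7 without replicate 1 of PBS, 3 without its replicate 2, 3 without its replicate 3, 7 without replicate 1 of LD, 4 without its replicate 2, 20 without its replicate 3, and 23 by DESeq2.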

How the data were processed

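RNA was measured in 2 single-nucleus libraries and 12 bulk libraries of mouse liver. Per the submitters' processing notes, the authors used FastQC, STAR and DESeq2, and Cell Ranger and Seurat 4.0.1, on mm10. Other versions, the annotation, the read counter and the treatment of doublets are not given in the sources used here. The deposited single-nucleus signal values are, as read from the values, averages across the nuclei in each group of each library, after every nucleus was scaled to 10000 UMIs, so that each column sums to 10000. Of 21915 genes, 4 entries with repeated names were left out. The deposited bulk signal values are, as read from the values, gene counts divided by a size factor per library. In every library 100% of them were whole multiples of 1 step (tolerance 0.01), which gave 21945394 to 23126164 reads in genes in the libraries labelled KO and WT and 39318264 to 41346464 in those labelled LD and PBS. The authors' deposited log2 fold changes, p-values and adjusted p-values were not used.

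Nuclei and their depths were recovered from levels shared by 8 or more genes, each a single UMI in a single nucleus. The method was tested on simulated columns of about the size of group 11. The larger groups were not simulated, and some of their counts rest on as few as 10 such levels. Levels were compared after adding 0.0586, the 5th percentile of levels above 0 in group 11. The 2000 genes with the highest mean level were used, with no test. UMIs are not scaled by gene length. No cell-level doublet call was possible on means. Bulk genes with at least 10 normalised counts in 3 of 6 libraries were tested on log2 of the value plus 1 with limma 3.58.1 in R 4.3.3 (2-sided, Benjamini-Hochberg, 0.05), without covariates, each table alone. edgeR 4.0.16 and DESeq2 1.42.0 ran on the recovered reads, and the fits were tested on simulated data. Alternatives were other pseudocounts, filters and scalings, a replicate block and leaving out each library. Intervals cover counting error only.

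The group, its 6 markers and the 31 gene lists were chosen with earlier results of these data known. Genes named are the markers, the mesothelial list, the 25 leading genes furthest above the next group, and the 15 with the highest mean level. So are the 10 largest KO to WT ratios per direction among the 1000 genes with the highest mean level (Gm and Rik models excluded). The highest members of each list, the 5 profiles most like the markers, and Ms4a7 complete them. Some genes that the rule takes are not reported here.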

Additional observations from a re-analysis of the deposited data

How the results depend on the processing

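The 30 mesothelial genes highest in group 11 and the 219 leading genes kept within 1.5 times their counts under most settings. The leading genes numbered 115 at a ratio of at least 4 and 109 among 500 genes. The counts of genes at least 2-fold higher and lower in KO depended on the pseudocount and the number of genes: 70 and 52 with the pseudocount at the 50th percentile, 32 and 15 with a pseudocount of 1, 23 and 12 among 500 genes, 355 and 333 among 4000 genes, and 13 and 1 at 4-fold. Without the deepest KO nucleus, an alternative chosen after seeing the data, Hbb-bs reversed to -1.45. Also chosen after seeing the data were the fits without haemoglobin, mitochondrial and plasma protein genes and without group 7, which changed no count by over 1.5 times.

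In bulk, DESeq2 called 1241 genes between libraries labelled KO and WT, against 589 by limma, and 1221 between LD and PBS, against 620. Leaving out a library gave 124 to 530 and 134 to 1226 calls, of which 0 to 3 and 3 to 20 were leading genes, 0 to 1 and 0 to 1 were among the 25 furthest above the next group, and 0 to 1 and 0 to 6 were in the mesothelial list. DESeq2 called 7 and 23 leading genes, 1 of the 25 in LD and 5 mesothelial list genes in LD. Quantile normalisation left 0 in that list. With a library left out, the log2 fold change of Upk3b ran from -0.70 to 0.45 between libraries labelled KO and WT, reversing to 0.04, 0.16 and 0.45 without WT replicate 1, WT replicate 3 and KO replicate 2. Between LD and PBS it ran from -0.05 to 0.67, reversing without LD replicate 1, and that of Msln ran from -0.01 to 0.73, reversing without PBS replicate 1. None of these passed the test. The causes were not tested. Correlations of deviations between same-numbered libraries ran from -0.043 to 0.132, which cannot settle whether the numbers pair them. With a replicate block 822 and 793 genes were called, against 589 and 620 without it. Of the genes called with it, 5 and 12 were leading genes and 0 and 4 were in the mesothelial list.

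Depth limits low genes in the nuclei: a level of 1 is about 14.2 UMIs in KO and 11.8 in WT.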
